A study of Mus musculus with 6 samples.

Results

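Nephron progenitors are the mesenchymal cells that cap the tips of the ureteric bud, renew themselves there and turn into nephrons when the bud sends them Wnt signals. Their state is held by a small network of transcription regulators. Followed here were 9 genes for regulators of this network or markers of these cells: *Six2*, *Six4*, *Eya1*, *Sall1*, *Osr1*, *Cited1*, *Meox1*, *Wt1* and *Uncx*. They were chosen by name, and every probe set whose single gene symbol in the array annotation was one of these names was kept. This gave 15 of the 45101 probe sets on the array, and 14 of them were bright enough to be tested. At least 1 tested probe set stood for each of the 9 genes. The genes lie on chromosomes 17 (*Six2*), 12 (*Six4* and *Osr1*), 1 (*Eya1*), 8 (*Sall1*), X (*Cited1*), 11 (*Meox1*), 2 (*Wt1*) and 5 (*Uncx*).

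The study measured RNA of whole embryonic kidneys at embryonic day 12.5 in 3 Ret-deficient and 3 wild-type samples, with 1 array per sample. All samples were labelled as strain C57BL/6. The labels call the samples biological replicates. They give neither the *Ret* allele nor the litter or the number of embryos pooled, and their source field assigns the knockout to the pregnant female where title and genotype assign it to the kidney. *Ret* encodes the receptor for GDNF, the growth factor by which the mesenchyme draws out and branches the ureteric bud. The bud itself expresses the receptor, so the comparison asks how regulators of the mesenchyme stand when the bud lacks it.

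Several of the regulators act in pairs and complexes. The SIX-family proteins are homeodomain factors that bind DNA, and EYA proteins are their co-activators. Together they are known to switch on *Gdnf* in the mesenchyme, and *Six2* later keeps the progenitors from differentiating too early. *Sall1* and *Wt1* encode zinc finger factors, *Osr1* an early marker of the intermediate mesoderm from which the kidney arises, and *Cited1* a co-regulator that marks the least committed cap cells.

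The 6 arrays had the same trimmed mean signal, 2500.01, and median signals of 258.9 to 351.6. The brightest of 27 bacterial control probe sets, used as a gauge of background, read 97.2 to 186.9. *Ret* checked the labels. Its brighter probe set read 93.3, 479.8 and 334.1 in Ret-deficient kidneys, against 13315, 11042 and 10193 in wild-type kidneys. Ret-deficient replicate 1 stood apart in its bud epithelium: the median gene of a ureteric epithelium list lay at -3.09 there (log2, relative to the wild-type mean). The same median was -0.25 and -0.71 in the other Ret-deficient arrays, against -0.17 to 0.10 in the wild-type arrays. Ret-deficient replicate 3 stood apart in its macrophage genes, with a median of 1.45. Member results that rest on these arrays are given with and without them.

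*Six4* was the 1 regulator that read lower in every Ret-deficient kidney than in any wild-type kidney. *Six4* encodes a SIX-family homeodomain factor that acts upstream of *Gdnf*. Its brightest probe set, 1439753_x_at, read 4598.5, 4267 and 4375.5 in Ret-deficient kidneys, against 6706, 6818 and 6327.5 in wild-type kidneys. The spread within each group was narrow, with the highest array at 1.08 times the lowest in Ret-deficient and in wild-type kidneys alike. The group means were 4414 ± 169 in Ret-deficient and 6617 ± 257 in wild-type kidneys (mean signal ± SD, n = 3 each). The fitted level was 0.668 of that in wild-type kidneys, a log2 difference of -0.58 (SE 0.15, 95% confidence interval -0.93 to -0.24). The suffix of this probe set marks that some of its probes may also bind other sequences.

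A second probe set made from the same transcript, 1456862_at, read 4298, 3531 and 3767.5 in Ret-deficient kidneys, against 6694, 6446 and 5127 in wild-type kidneys. The dimmer 1425767_a_at, made from another transcript sequence, read 1541, 991.1 and 1522 in Ret-deficient kidneys, against 1781, 2696.5 and 2323 in wild-type kidneys. The groups did not overlap at either one. Their log2 differences were -0.65 (SE 0.18, 95% interval -1.08 to -0.22) and -0.75 (SE 0.25, 95% interval -1.34 to -0.15). The remaining *Six4* probe set, 1427701_a_at, lay below the brightest bacterial control on all 6 arrays and was not tested.

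None of the *Six4* probe sets passed the test over all genes. The limma fit over 22519 tested probe sets gave each of the 3 an adjusted p of 0.867, and their unadjusted p values were 0.00557, 0.00927 and 0.0213. No member probe set passed an adjusted p of 0.05, and no probe set of the array did (0%). At an unadjusted p under 0.05 the members had 3 of 14 probe sets, all of *Six4* and all lower, and 1 of 9 genes. The array as a whole had 5.37% of probe sets, 2.74% lower and 2.63% higher, and 5.55% of genes. The groups did not overlap at 3 of 14 member probe sets, against 10.7% of all tested probe sets (5.54% lower in Ret-deficient kidneys). Counted once per gene this was 1 of 9 members, against 11.8% of genes (5.73% lower). A share of 1 in 9 lies near that background. Among the 2066 genes with 3 or more tested probe sets, 5 had all of them lower without overlap, 0.242%, and *Six4* was 1 of these. This count was not planned and takes its form from the *Six4* values. *Six4* was therefore bound to meet it, and the share is no test of *Six4*. The probe sets of 1 gene share their RNA and in part their sequence, so they do not count as separate measurements of the kidneys.

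**Figure D1:**
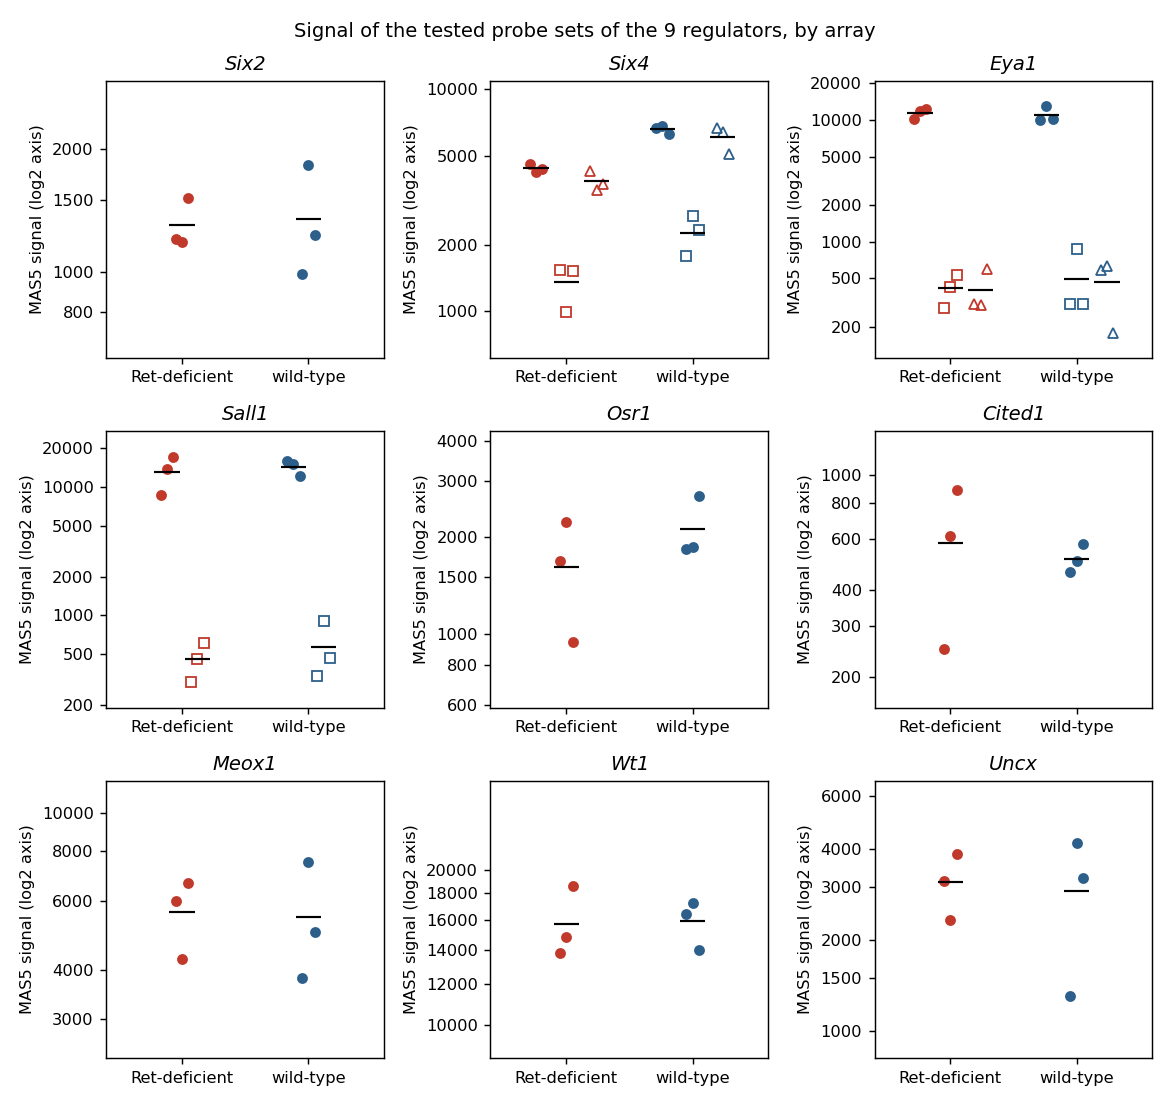
MAS5 signal (log2 axis) of each tested probe set of the 9 regulators, with 1 point per array, Ret-deficient in red and wild-type in blue, and a black line at the group mean; filled circles mark the probe set that stands for the gene, open squares and triangles its other tested probe sets. The 3 Six4 probe sets are the ones whose groups do not overlap, with 4267 to 4598.5 in Ret-deficient and 6327.5 to 6818 in wild-type kidneys for the brightest.

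The *Six4* and epithelium values of each Ret-deficient kidney stood as follows. In Ret-deficient replicate 1, where the epithelium list lay at -3.09, *Six4* stood at -0.52 relative to the wild-type mean. In replicate 2, where the list lay at -0.25, it stood at -0.63, and in replicate 3, where the list lay at -0.71, at -0.59. The part of epithelium loss in the *Six4* values was not tested. Leaving out each array in turn kept the difference of the brightest probe set between -0.61 and -0.56. Over 16 alternative settings the *Six4* difference stayed negative, between -0.66 and -0.47, and its adjusted p lay between 0.313 and 0.998. The -0.66 came from averaging the tested *Six4* probe sets. For the brightest probe set alone the lowest value was -0.61, without wild-type replicate 3. The smallest size came from centring each array on its median, under which the unadjusted p was 0.0687 and 1 of the 14 member probe sets, 1456862_at, had an unadjusted p under 0.05. That centring moved the median of all tested probe sets by 0.11, to 0.10. In whole kidneys a lower signal cannot be split into fewer cells that make the transcript and less transcript per cell. Every value is also relative to the rest of the RNA, since each array was scaled to a common mean.

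Ratios taken within an array do not depend on that scaling. The log2 ratio of *Six4* to *Wt1* was -1.58, -1.79 and -2.08 in Ret-deficient kidneys, against -1.29, -1.34 and -1.14 in wild-type kidneys. For *Six4* to *Eya1* it was -1.14, -1.47 and -1.495 in Ret-deficient kidneys, against -0.57, -0.93 and -0.69 in wild-type kidneys. Both ratios were lower in every Ret-deficient kidney than in any wild-type kidney. Against the other 6 members the ratios of the groups overlapped, including *Six4* to *Six2*, which was 1.91, 1.83 and 1.52 in Ret-deficient kidneys and 2.74, 1.89 and 2.35 in wild-type kidneys. Taken against each of 11580 other genes, the *Six4* ratio was lower without overlap for 64.3%, and among the members for 2 of 8. The lower ratios to *Wt1* and *Eya1* are thus not particular to these 2 genes.

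The starts of *Six4* and *Six2* are shown because the groups did not overlap for the first of these paralogs and overlapped for the second. Of the 9 regulators 5 (*Six2*, *Six4*, *Sall1*, *Cited1* and *Uncx*) had promoter windows in the RefSeq table of GRCm38.p6, 10 windows in all. Each runs from 250 bases before to 50 bases after an annotated start. *Eya1*, *Osr1*, *Meox1* and *Wt1* had none there. The *Six4* window shown lies at chr12:73113196-73113495 and the *Six2* window at chr17:85688205-85688504, both on the minus strand and written 5′ to 3′ along the gene. *Six4* had 2 windows, and only the window shown held the SIX-family core given next, so the contrast with *Six2* depends on that choice. Capitals mark matches, on either strand, to the core of the SIX-family binding site first described in muscle genes (TCAGGTT), to the CCAAT box (CCAAT) and to the GC box (GGGCGG).
Six4: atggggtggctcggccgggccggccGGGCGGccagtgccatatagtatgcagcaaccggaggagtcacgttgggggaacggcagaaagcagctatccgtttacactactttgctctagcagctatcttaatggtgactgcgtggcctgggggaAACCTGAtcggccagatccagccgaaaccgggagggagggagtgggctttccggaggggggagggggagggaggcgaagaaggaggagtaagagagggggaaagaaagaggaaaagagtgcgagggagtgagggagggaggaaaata
Six2: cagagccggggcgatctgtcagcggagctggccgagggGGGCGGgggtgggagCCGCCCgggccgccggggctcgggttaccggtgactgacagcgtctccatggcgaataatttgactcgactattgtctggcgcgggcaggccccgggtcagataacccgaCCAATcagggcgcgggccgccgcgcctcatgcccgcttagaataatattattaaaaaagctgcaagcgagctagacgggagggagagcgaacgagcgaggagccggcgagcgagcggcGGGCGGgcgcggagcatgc

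The *Six4* window shown held the SIX-family core once, on the reverse strand, 97 bases before the start. None of the other 9 member windows held it, and 4.07% of 32851 windows over the genome did. The other *Six4* window, which shares 120 bases with the one shown, held a CCAAT box and a GC box. The *Six2* window held 3 GC boxes and 1 CCAAT box, and 35.7% and 37.4% of all windows held these motifs at least once. A TCF/LEF site, read as CTTTG followed by AA, AT, TA or TT, was in 0 of the 10 member windows and in 16.9% of all windows. G and C made up 60% of the *Six4* window shown and 67.3% of the *Six2* window, against a median of 52.7%. Of all windows, 29.5% were at or above the *Six4* value and 13.8% at or above the *Six2* value. The motif hits are matches of letters and not measured binding sites.

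*Six2*, the regulator that holds the progenitor state, averaged 1304 ± 185 in Ret-deficient and 1351 ± 432 in wild-type kidneys (SD, n = 3 each). It read 1209, 1186.5 and 1517 in Ret-deficient kidneys, against 990.9, 1830 and 1232 in wild-type kidneys. The Ret-deficient values lay inside the wild-type range. The log2 difference had a 95% interval of -0.62 to 0.60, which leaves room for a level between 0.649 and 1.51 times that in wild-type kidneys. *Six2* was not called (limma adjusted p = 0.999), and these bounds are not the smallest difference that the test could call.

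*Wt1*, a zinc finger factor needed for the kidney mesenchyme to survive and later for podocytes, had a narrower interval than *Six2*. It read 13788, 14800 and 18592 in Ret-deficient kidneys, against 16414, 17261 and 13977 in wild-type kidneys. The groups overlapped, and the log2 difference was -0.02 (SE 0.19, 95% interval -0.47 to 0.42). The bounds correspond to 0.724 and 1.34 times the wild-type level. Its probe set is of the kind that may also bind transcripts of other genes.

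*Eya1*, the co-activator of the SIX-family factors, was measured by 3 probe sets that lay in different ranges. The brightest read 10161, 11833 and 12364 in Ret-deficient kidneys, against 9980.5, 13023 and 10186 in wild-type kidneys. The groups overlapped, with a log2 difference of 0.06 (SE 0.18, 95% interval -0.38 to 0.49). The dimmer probe sets had differences of -0.13 and -0.09, opposite in sign, with intervals of about a log2 unit to either side (-1.17 to 0.92 and -1.31 to 1.13). They read 287.1 to 529.1 and 302.5 to 596.4 in Ret-deficient kidneys, and 309.9 to 876.1 and 179.3 to 631.5 in wild-type kidneys. The bright probe set was the narrower measurement.

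*Sall1*, a zinc finger factor that keeps progenitors undifferentiated together with *Six2*, had a difference that moved with single arrays. Its brighter probe set read 8716, 13704 and 17001 in Ret-deficient kidneys, against 15859, 15221 and 12116 in wild-type kidneys. Ret-deficient replicate 1, the array with the least bud epithelium, was the lowest of the 6 and replicate 3 the highest. The log2 difference was -0.18 (SE 0.28, 95% interval -0.83 to 0.48), and it was 0.09 when Ret-deficient replicate 1 was left out and -0.39 when replicate 3 of that group was. The dimmer probe set read 304.1, 455.9 and 603.2 in Ret-deficient kidneys, against 337.2, 898.8 and 463.6 in wild-type kidneys, and it too was lowest in Ret-deficient replicate 1.

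*Cited1* showed the same order of Ret-deficient arrays with a wider span. It read 251.4, 613.7 and 881.5 in Ret-deficient kidneys, against 460, 502.6 and 578.1 in wild-type kidneys. The lowest and the highest of the 6 values were both Ret-deficient, and the highest was 3.51 times the lowest, against 1.26 times among wild-type kidneys. The log2 difference of 0.01 (SE 0.43, 95% interval -1.0 to 1.03) averaged over that span. Leaving out Ret-deficient replicate 1 gave 0.51, and leaving out replicate 3 of that group gave -0.36. The part of epithelium loss in the low *Cited1* and *Sall1* values of replicate 1 was not tested.

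*Osr1*, an odd-skipped zinc finger factor of the early nephric mesenchyme, had the second largest difference among the members after *Six4*. It read 1685.5, 2228 and 938.9 in Ret-deficient kidneys, against 1836, 1872 and 2687 in wild-type kidneys. The groups overlapped because Ret-deficient replicate 2 read above 2 of the wild-type arrays. The log2 difference was -0.46 (SE 0.34, 95% interval -1.27 to 0.35, adjusted p = 0.951), and it was -0.11 without Ret-deficient replicate 3 and -0.73 when replicate 2 was left out instead. Ret-deficient replicate 3 read lowest for *Osr1* and highest for *Six2*, *Eya1*, *Sall1*, *Cited1*, *Meox1*, *Wt1* and *Uncx* within its group. It also had the largest summed signal of 10 macrophage genes, 71771, against 25954 and 37035 in the other Ret-deficient and 20374 to 32246 in wild-type kidneys. The part of macrophage RNA in these values was not tested.

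*Meox1* and *Uncx* encode homeodomain factors that are known from somites as well as from the kidney mesenchyme. *Meox1* read 5980, 4263 and 6635 in Ret-deficient kidneys, against 3822, 7536 and 4984 in wild-type kidneys. The Ret-deficient values lay within the wild-type range, and the log2 difference was 0.08 (SE 0.30, 95% interval -0.63 to 0.79). *Uncx* read 3130, 2331 and 3862 in Ret-deficient kidneys, against 1297, 4208 and 3200 in wild-type kidneys. Wild-type replicate 1 was far below the other 5 arrays. The log2 difference of 0.23 (SE 0.45, 95% interval -0.83 to 1.29) was -0.27 without that array and 0.57 when wild-type replicate 2 was left out instead.

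**Figure D2:**
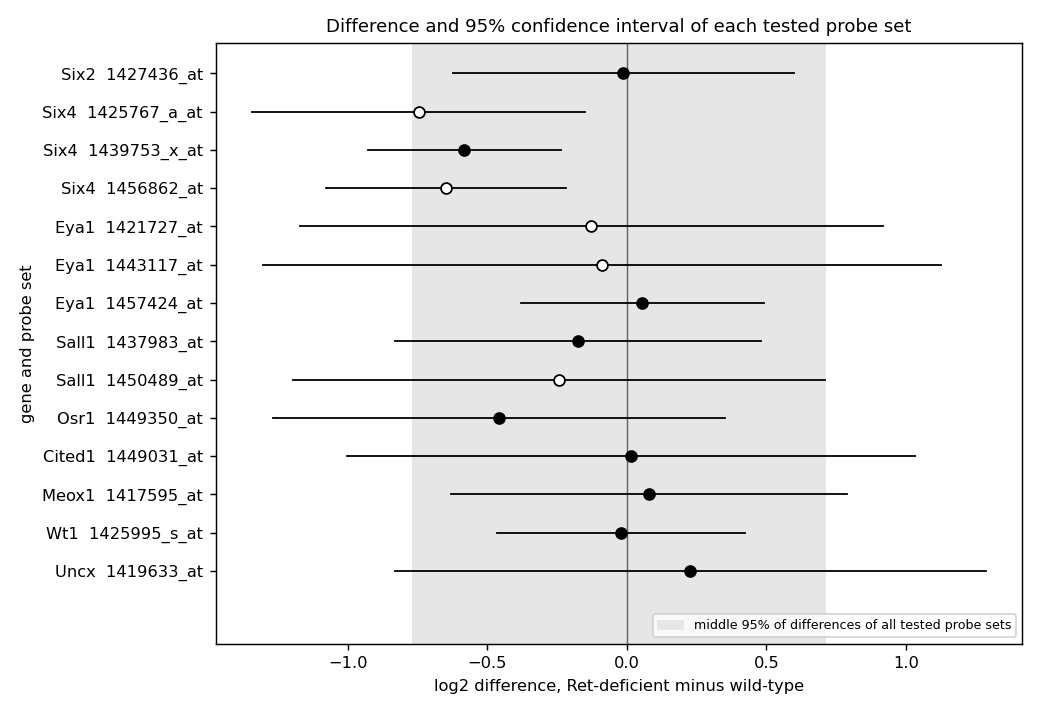
Log2 difference (Ret-deficient minus wild-type) of the 14 tested member probe sets, with 95% confidence intervals; filled points mark the probe set that stands for the gene, and the grey band spans the middle 95% of the differences of all 22519 tested probe sets (-0.77 to 0.71). The intervals of the 3 Six4 probe sets lie below 0 and those of the other 11 cross it.

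Both genes are also markers of somites, so genes of somite derivatives were read in the same arrays. A sclerotome and cartilage list of 8 genes summed to 30620 to 75217 in Ret-deficient and to 35722 to 41383 in wild-type kidneys, with *Nkx3-2* and *Snorc* at background on all arrays. Its highest sum was in Ret-deficient replicate 1, where *Uncx* read 3130, in the middle of its group. A skeletal muscle list of 12 genes summed to 4725 to 9752 in Ret-deficient and to 6279 to 7425 in wild-type kidneys, with *Chrna1* at background on all arrays. *Uncx* was lowest in wild-type replicate 1, where neither list sum was at its lowest or highest. Of the 3 tested sclerotome and cartilage genes, *Pax9* was highest among wild-type kidneys there, *Col2a1* lowest and *Col9a1* between. The part of somite tissue in these values was not tested.

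Tissue next to the kidney can also carry *Wt1*. A mesothelium list of 8 genes summed to 1410 to 3250.5 in Ret-deficient and to 1936 to 6249.5 in wild-type kidneys, and *Msln* and *Muc16* were at background throughout. Gonad and adrenal genes, 11 in number, summed to 1629 to 2013 in Ret-deficient and to 1653.5 to 3763 in wild-type kidneys, and *Amh* and *Dazl* were at background throughout. Both sums were highest in wild-type replicate 1. *Wt1* read 16414 there, between the other wild-type arrays. The part of such tissue in the *Wt1* values was not tested.

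Replicates of a group also differed among themselves. The median within-group SD of the 9 members was 0.33 in Ret-deficient and 0.21 in wild-type kidneys (log2), against 0.27 and 0.25 for all tested probe sets. For the brightest *Six4* probe set the SD was 0.055 in Ret-deficient and 0.056 in wild-type kidneys. Within the wild-type group, replicate 2 read highest for 6 of the 9 members and replicate 1 lowest for 6. Within the Ret-deficient group, replicate 3 read highest for 7 of the 9. *Six2*, *Eya1*, *Meox1* and *Uncx* were all lowest in wild-type replicate 1 and highest in wild-type replicate 2 among wild-type kidneys.

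Distances between centred profiles over the 6 arrays gave the members nearest to each other. *Six2* and *Meox1* were each other's nearest, with a mean absolute log2 distance of 0.11, and so were *Eya1* and *Wt1*, also at 0.11. *Six4* was 0.28 from its nearest member, *Wt1*. *Osr1* was the most distant, at 0.39 from its nearest, *Six4*. Among 11140 other genes the profiles nearest to *Six4* were those of *Nthl1*, a DNA glycosylase gene, at 0.043, *Clspn*, a replication checkpoint gene, at 0.058 and *Mastl*, a mitotic kinase gene, at 0.068. The nearest to *Six2* were *Has2*, a hyaluronan synthase gene, *Ccdc163* and *Srsf5*, a splicing factor gene, at 0.046 to 0.066. The nearest to *Wt1* were *Rbm18*, *Bap1* and *Gpkow*, at 0.019 to 0.037. These distances describe the 6 arrays only.

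**Figure D3:**
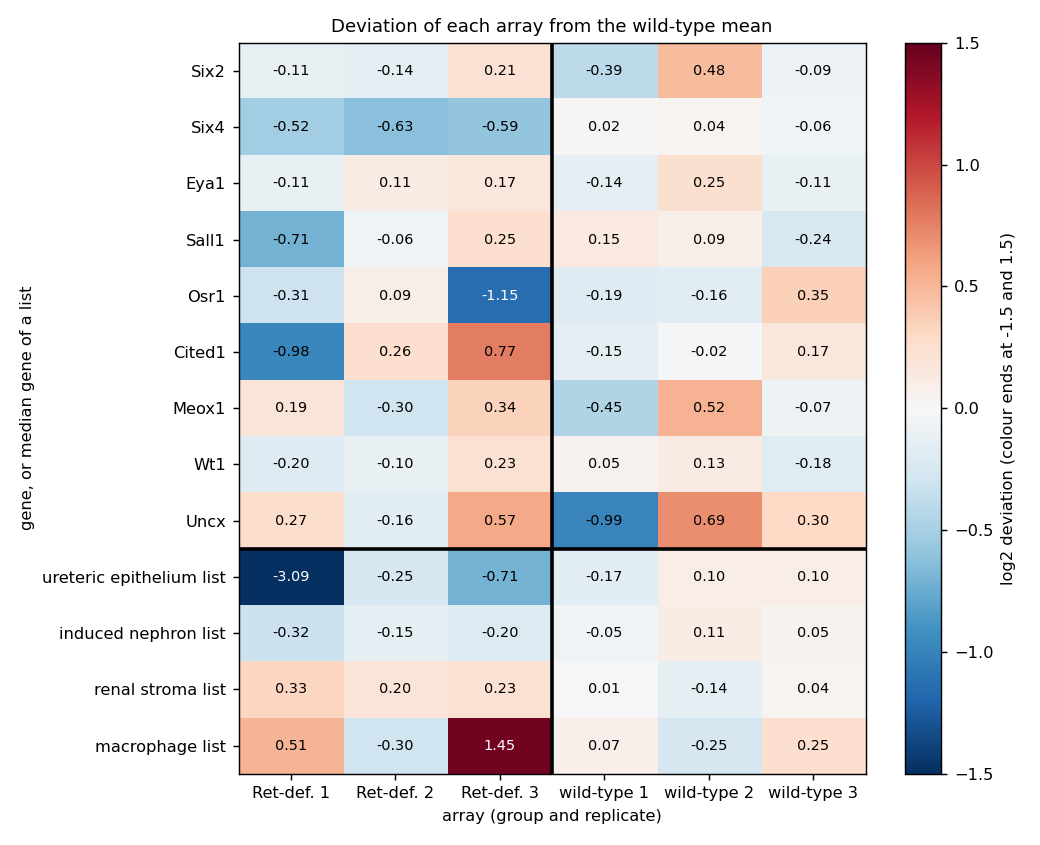
Log2 deviation of each array from the wild-type mean, for the 9 regulators (above the line) and for the median gene of 4 marker lists (below it), with Ret-deficient arrays left of the vertical line and wild-type arrays right of it. Six4 lies between -0.63 and -0.52 in the 3 Ret-deficient arrays while the ureteric epithelium list runs from -3.09 to -0.25 across them.

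Other genes of the cap mesenchyme were counted beside the members, from lists chosen with earlier results known. Of 22 such genes 19 were tested, 12 with a positive and 7 with a negative difference, a median of 0.15, and 0 past the test. The median of all tested genes was 0.0030, and 49.5% of them were negative. In 3 of the 19, 15.8%, the groups did not overlap, near the 11.8% of all genes. *Gdnf*, which SIX-family and EYA proteins are known to activate, read 1772, 1697.5 and 1800 in Ret-deficient kidneys, against 2777, 4442 and 3317 in wild-type kidneys (log2 difference -0.97, limma adjusted p = 0.867). *Tmem100* was lower without overlap and *Rspo1*, a Wnt agonist gene, higher without overlap, with differences of -0.78 and 0.64.

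Paralogs of the members gave no common direction. Of 14 paralogs 8 were tested, 5 positive and 3 negative, with a median of 0.11 and 0 past the test. *Eya3* read 7297, 7717 and 6646 in Ret-deficient kidneys, against 9166, 8681 and 9258 in wild-type kidneys, a log2 difference of -0.33 (SE 0.15) and the 1 paralog whose groups did not overlap. *Sall4*, a relative of *Sall1* known from early embryonic and germ cells, read 18888, 27196 and 2288 in Ret-deficient kidneys, against 31171, 22608 and 24393 in wild-type kidneys. Its difference of -1.29 rested on Ret-deficient replicate 3, the array that also read lowest for *Osr1*, and was -0.19 without it. It was -1.97 when Ret-deficient replicate 2 was left out instead. *Six5* read 5642 ± 1132 in Ret-deficient and 4267.5 ± 1145 in wild-type kidneys (SD, n = 3 each), with overlap.

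Cofactors with which the members are known to work, such as Groucho-type co-repressors, the NuRD complex that Sall1 recruits and the partners of Wnt signalling, were counted as well. Of 23 genes 22 were tested, 14 positive and 8 negative, with a median of 0.036, a range of -0.41 to 0.64 and 0 past the test. The upper end was *Tle1*, a Groucho-type gene named after its values were seen, which read 4094, 3451 and 1930 in Ret-deficient kidneys, against 915.3, 2854.5 and 2714 in wild-type kidneys, with overlap. *Mta2*, a NuRD subunit gene, read 2752, 3418 and 2970.5 in Ret-deficient kidneys, against 2513.5, 2402 and 2527 in wild-type kidneys. It was the 1 cofactor whose groups did not overlap, 4.55% of those tested, against 11.8% of all genes. *Dach1*, a co-repressor gene of the SIX-EYA network, read 6234 ± 1526.5 in Ret-deficient and 8240 ± 1734.5 in wild-type kidneys (SD, n = 3 each), with overlap. *Tcf7l1* had a difference of -0.31, also with overlap.

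Lists for cells that neighbour the progenitors or arise from them are given beside the members. The median difference of the 9 members was -0.01, with 4 positive and 5 negative, in a range of -0.58 to 0.23. Induced nephron genes had a median of -0.31 over 15 tested genes, renal stroma genes 0.23 over 19 and ureteric epithelium genes -1.14 over 19, each with 0 past the test. The epithelium median was -0.59 when Ret-deficient replicate 1 was left out and -1.99 when replicate 2 was. With an array left out the stroma median ran from 0.18 (without wild-type replicate 2) to 0.40 (without Ret-deficient replicate 2). The groups did not overlap for 40% of the induced nephron genes and for 42.1% of the stroma and of the epithelium genes. This compares with 11.8% of all genes and 1 of the 9 members. Of the induced nephron genes 5 were lower and 1 higher without overlap, of the stroma genes 1 and 7, of the epithelium genes 8 and 0. The lists were chosen with earlier results of these data known, so their shares are no independent support. The difference between these lists and the members was not tested.

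**Figure D4:**
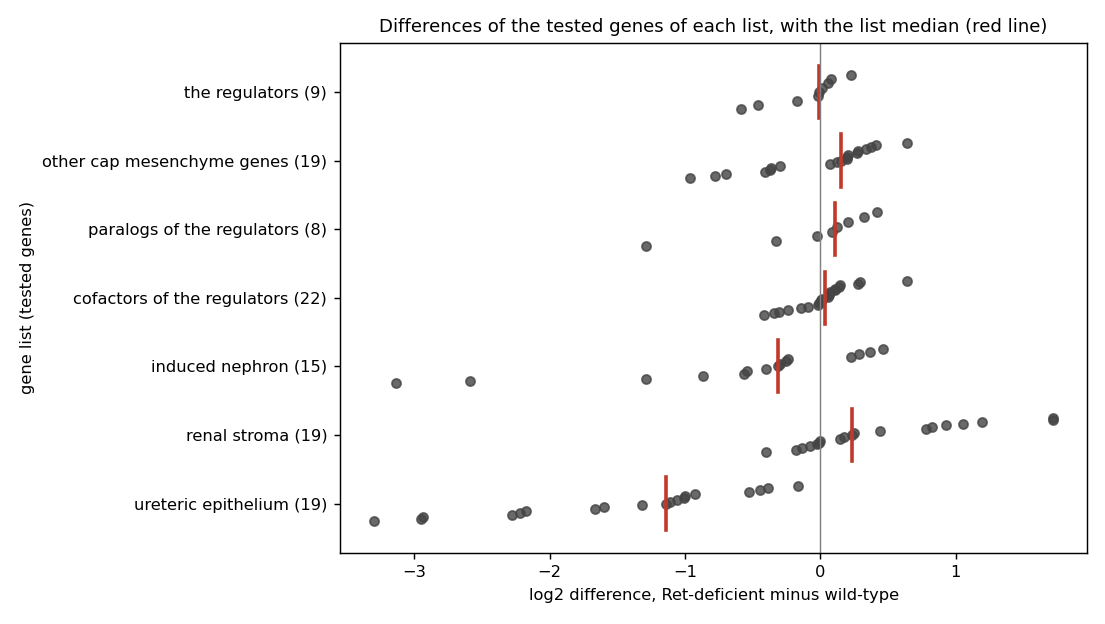
Log2 difference (Ret-deficient minus wild-type) of each tested gene, by list, with a red line at the list median and the number of tested genes in brackets. The 9 regulators spread from -0.58 to 0.23 around a median of -0.01, while the 19 ureteric epithelium genes all lie below 0 around a median of -1.14, which was -0.59 when Ret-deficient replicate 1 was left out.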

How the data were processed

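Per the study design text, RNA of whole embryonic kidneys was amplified and hybridized to Affymetrix mouse whole-genome arrays. The labels' protocol instead names the manufacturer's standard labelling. The deposited intensity values were made by the authors with MAS5, as the submitters' processing notes say, and no version or scaling target is given in the sources used here. They are on a linear scale with a common mean after trimming 2% at each end. Arrays correlated at 0.932 to 0.983 and none were identical.

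Values were used as log2(value + 16), which understates the change of dim probe sets, and were not normalized further because the array medians differed by 0.42, under a limit of 0.5. The 64 control probe sets were left out. Testing was limited to the 22519 probe sets in the brighter part of the array, whose mean log2 value reached the median of all such means. The groups were compared with limma 3.58.1 in R 4.3.3 (lmFit and eBayes, two-sided), with Benjamini-Hochberg adjustment over all tested probe sets and a threshold of 0.05. The test was checked on simulated data. Confidence intervals are those of the fit and are not adjusted for the number of probe sets. The number of arrays limits the precision, and an exact permutation test of 3 against 3 cannot go below p = 0.1.

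Symbols came from the array annotation, updated through gene IDs with RefSeq names (99.4% of 34958 probe sets with 1 symbol). A gene was represented by its tested probe set with the highest mean. The members and lists were chosen with earlier results of these data known. The text names all member probe sets, *Ret*, at most 3 genes by smallest p of the lists of progenitor genes, paralogs and cofactors, and the nearest profiles, without clone names. Genes of the other lists were counted. Those at background on all arrays, *Tle1* and the tested sclerotome and cartilage genes were named after their values were seen. Alternatives were a pseudocount of 1 or 64, other brightness filters, quantile normalization, median centring, an intensity trend, weights for array quality, a block for the replicate number, leaving out each array and averaging the probe sets of each gene.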

Additional observations from a re-analysis of the deposited data

How the results depend on the processing

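No member probe set passed an adjusted p of 0.05 under any of the 15 alternatives to the fit, and the 3 tested *Six4* probe sets kept a negative difference under all of them, with 1 to 3 member probe sets at an unadjusted p under 0.05 (1 with median centring). The count of probe sets past the test over the array was 0 to 1 with an array left out, 1 with median centring and 1 with a variance trend over intensity, and the 1 was *Ret*. The count at an unadjusted p under 0.05, 1209, was 838 to 2140 with an array left out, 2265 without the brightness filter, 723 with the top 30% of probe sets and 2533 with array quality weights. Deviations from the group means correlated at 0.031, -0.042 and -0.12 between arrays of equal replicate number (1, 2 and 3). Between arrays of unequal number they correlated at -0.19 to 0.21. These values give no sign of a pairing by number and cannot exclude a pairing by litter. The replicate block gave 1141 and changed no call: its adjusted p for the brightest *Six4* probe set was 0.961.

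Members near 0 changed sign. With an array left out the log2 difference was -0.21 to 0.23 for *Six2*, -0.0132 to 0.18, -0.37 to 0.36 and -0.65 to 0.21 for *Eya1* (1457424_at, 1421727_at and 1443117_at), -0.39 to 0.094 and -0.55 to 0.14 for *Sall1* (1437983_at and 1450489_at), -0.36 to 0.51 for *Cited1*, -0.15 to 0.34 for *Meox1*, -0.15 to 0.068 for *Wt1*, and -0.27 to 0.57 for *Uncx*. *Osr1* kept its sign, at -0.73 to -0.11. Median centring gave 0.10 for *Six2*, 0.022 for *Eya1* (1443117_at) and 0.092 for *Wt1*. Array quality weights gave -0.10 for *Eya1* (1457424_at), -0.096 for *Cited1*, -0.31 for *Meox1* and -0.35 for *Uncx*. They also moved *Six2* to -0.35, *Eya1* (1421727_at) to -0.73 and *Sall1* (1450489_at) to -0.78, without a change of sign, and the median of the members was -0.28 with them, and -0.15 to 0.068 with an array left out. The mean of its probe sets gave -0.054 for *Eya1*. The causes were not tested. Median centring moved the share of probe sets with a higher value in Ret-deficient kidneys to 65.6%, against 48.3% without it.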
